A study of Drosophila melanogaster with 8 samples.

Results

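In fly ovaries, 94 genomic piRNA clusters were measured by small RNA sequencing of 2 wild-type libraries, and all 94 clusters listed for the series are described here. The ovaries came from Oregon-R, a common laboratory wild-type strain, kept at 25 °C; no transgene, allele or treatment is named for these flies, and their age is not given. The libraries, called wild type 1 and wild type 2, are 2 of 8 in a series that also holds ovaries with the null alleles egt17 and egt8 of the gene boot, which are not compared here. Nothing in the labels states whether separate flies were used for each library, so the spread between them may be technical.

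PIWI-interacting RNAs (piRNAs) are small RNAs that guide PIWI proteins to transposon transcripts and silence them in the germline and in the somatic follicle cells around it. Most are cut from long precursor transcripts of discrete loci, the piRNA clusters, which are rich in transposon fragments and lie mainly in heterochromatin near centromeres and telomeres. In fly ovaries 42AB, 38C and 80F are known as germline clusters transcribed from both strands. Flam (flamenco) is known as a cluster of the follicle cells, transcribed from a single strand, and 20A as a single-strand cluster that is also active in the germline.

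The tissue was checked in the 2 wild-type total RNA libraries. Of 10 germline markers, 9 were matched, and each stood at 6.23 FPKM or more in both libraries. For osk, which encodes the protein that assembles the germ plasm, the values were 305 and 673 FPKM. The 8 follicle cell markers summed to 6713 and 6155 FPKM, the 9 germline markers to 952 and 1492 FPKM, and 7 muscle markers to 222 and 50.2 FPKM. Of 8 testis markers, 7 were under 1 FPKM in both libraries, with Mst87F, dj, Mst84Da, can and aly listed at 0; the exception was twe, at 67.5 and 94.1 FPKM, a phosphatase gene of meiosis in both sexes.

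The deposited values were taken as reads per kilobase of cluster per 1000000 reads (RPKM), because they stepped by whole reads. The steps gave a depth of 19.6 M reads for wild type 1 and 6.78 M for wild type 2. Reads assigned to the 94 clusters came to 2.63 M in wild type 1 and 0.913 M in wild type 2. They made up 13.4% of the depth in wild type 1 and 13.5% in wild type 2, although the first library was 2.89 times deeper. The sources used here do not say how reads that map to several places were counted, nor whether reads were limited to the length of piRNAs. Reads from transposon copies held by several clusters may therefore be counted in more than 1 of them, and intervals below cover counting error only.

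Levels spanned a wide range, with a few clusters far above the rest. The mean level over both libraries ran from 0.234 RPKM in cluster132 to 374 RPKM in cluster56, with a median of 13.4 RPKM and quartiles of 7.12 and 24.8 RPKM. The mean was above 100 RPKM in 7 clusters, between 5 and 25 RPKM in 56, and under 1 RPKM in 2. The thinnest values rested on 40 reads in wild type 1 and 12 reads in wild type 2, and the median cluster on 7858 and 2520.5 reads.

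The highest levels were those of cluster56 and cluster19. Cluster56 lies on 2R from 5367110 to 5394403 in dm6 and covers 27.3 kb, of which only 248 bp overlap an annotated gene span, that of lncRNA:CR42646. It had 443 RPKM in wild type 1 and 306 RPKM in wild type 2, with a mean of 374 ± 96.6 RPKM (SD, n = 2). Cluster19 covers 6.18 kb on X, from 11195496 to 11201673, with no annotated gene span, and the gene CG11106 starts 0.575 kb beyond it. Its values were 351 and 370 RPKM. Cluster56 ranked first in wild type 1 and cluster19 in wild type 2, so their order was not settled by these libraries.

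The next 5 clusters by mean level kept the same order among themselves in both libraries, although their ranges over the libraries overlapped. Cluster66, a 1.09 kb interval on X from 22222591 to 22223677, had 129 and 236 RPKM. Cluster2, the 20A cluster, lies on X from 21521148 to 21560880 and had 128 and 181 RPKM; the annotated lncRNA:CR46472 covers 15% of it. Cluster66 and cluster2 were nearly level in wild type 1 and apart in wild type 2. 42AB, on 2R from 6256844 to 6499214, had 110 and 154 RPKM. No annotated gene span overlaps it, and the gene Pld ends 1.58 kb before it. Cluster27, on 2L from 20104660 to 20118503 and 1 of 2 listed intervals at 38C, had 107 and 148 RPKM, and cluster18 on X had 106 and 132 RPKM.

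Cluster103, cluster22 and flam completed the 10 highest. Flam, on X from 21634639 to 21883809, had 96.3 RPKM in wild type 1 and 70.6 RPKM in wild type 2. The annotated lncRNA:flam, the precursor RNA of the cluster, covers 62.6% of the interval, which runs on for 93.1 kb past the end of that gene. Cluster103 had 55.0 and 121 RPKM and cluster22 had 111 and 61.2 RPKM, so these clusters changed places between the libraries. Of the 10 highest clusters in each library, 8 were shared. Of the 10 highest by mean level, 7 lay on X, which holds 14 of all 94 clusters (14.9%). Cluster18, cluster66 and cluster103 among them lie within 159 kb of each other, and reads shared between them were not examined.

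**Figure D1:**
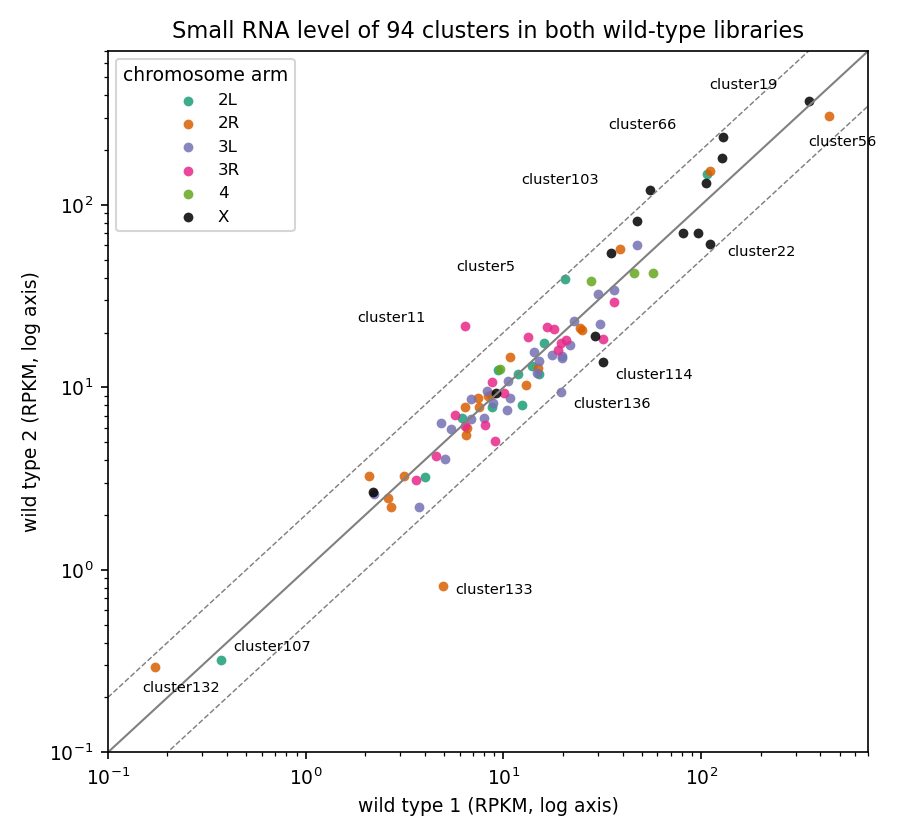
RPKM of each of the 94 clusters in wild type 1 (horizontal) against wild type 2 (vertical), both on log axes, 1 point per cluster coloured by chromosome arm; the solid line marks equal values and the dashed lines 2-fold differences. Of all points, 89 lie within 2-fold, and cluster133 and cluster11 stand farthest from the line.

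The other intervals known by name, at 38C and 80F, had mean levels above the upper quartile of 24.8 RPKM. The second 38C interval, cluster5, starts 29.8 kb after cluster27 and covers 79.3 kb. It had 20.4 RPKM in wild type 1 and 39.3 RPKM in wild type 2, below cluster27 in both libraries. Cluster6, the 80F cluster, lies on 3L from 23280864 to 23321099 and had 36.2 and 34.4 RPKM, ranking 18th of the 94 by mean level. The spans of nAChRalpha4, a neuronal acetylcholine receptor subunit, and alpha-Cat, an adhesion protein, reach into its 2 ends.

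At the bottom of the order, cluster132 and cluster107 were near the limit of detection. Cluster132, at the centromere side of 2R from 1530 to 23605, had 75 reads (0.173 RPKM) in wild type 1 and 44 reads (0.294 RPKM) in wild type 2. Cluster107 on 2L had 40 reads (0.371 RPKM) and 12 reads (0.322 RPKM). By mean level both stood apart from the next lowest, cluster41 on 3L, which had 2.22 and 2.62 RPKM. Within each library the next lowest was another cluster, cluster128 in wild type 1 (2.09 RPKM) and cluster133 in wild type 2 (0.817 RPKM). Cluster45, which reaches into the span of the synaptic genes stnA and stnB, had 2.199 and 2.68 RPKM, and cluster135 had 2.71 and 2.21 RPKM.

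Ranking by share of reads brought the long clusters forward. The share of a cluster is its RPKM times its length, or its recovered reads, out of all cluster reads of the library. 42AB held 19.9% of cluster reads in wild type 1 (exact Clopper-Pearson 95% interval 19.87% to 19.97%) and 27.7% in wild type 2 (27.6% to 27.8%). Flam held 17.9% in wild type 1 (17.8% to 17.9%) and 13.1% in wild type 2 (13.0% to 13.1%). Both are near 0.25 Mb long, at 242 kb and 249 kb, and together they held 37.8% and 40.7% of cluster reads. 42AB was thus first and flam second in both libraries, and their ranges did not overlap.

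The ratio of the germline cluster to the follicle cell cluster differed between the libraries by much more than counting error. 42AB had 1.12 times the reads of flam in wild type 1 (95% counting interval 1.11 to 1.12) and 2.12 times in wild type 2 (2.10 to 2.13). In whole ovaries, fewer cells of a type and less RNA per cell cannot be told apart. In the total RNA libraries of the same names, which the labels do not tie to the same flies, the summed germline markers stood at 952 and 1492 FPKM and the summed follicle cell markers at 6713 and 6155 FPKM, in the order wild type 1 and 2; a few abundant genes carry these sums. The median germline marker was at 70.9 and 74.8 FPKM, with 7 of 9 higher in wild type 2, and the median follicle cell marker at 11.0 and 19.9 FPKM, with 5 of 8 higher in wild type 2. The part of cell makeup in the ratio was not tested.

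Cluster56 ranked next, with 8.999% and 6.20% of reads from 27.3 kb. Cluster9, an 84.7 kb interval on X, followed by mean share with 5.09% and 4.42%. Cluster2 (20A) held 3.78% and 5.35%, so cluster9 and cluster2 traded places between the libraries. Cluster3, at the outer end of chromosome 4, held 3.84% and 2.82%, and its 89.8 kb overlap the end of Cadps, a gene of vesicle release.

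The remaining members of the 10 largest shares were cluster18 (1.92% and 2.39%), cluster100 (1.78% and 2.25%), cluster28 (2.05% and 1.68%) and cluster37 (2.03% and 1.63%). Cluster18 was above cluster100 and cluster28 above cluster37 in both libraries, while the ranges of all 4 overlapped. The ranks by level and by share had 5 clusters in common among their first 10, which were cluster56, cluster2, 42AB, cluster18 and flam. Cluster19, second by level, was 12th by share with 1.62% and 1.69%. Cluster66, which followed it by level, was 66th by share with 0.104% and 0.191%, and cluster103 was 57th.

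**Figure D2:**
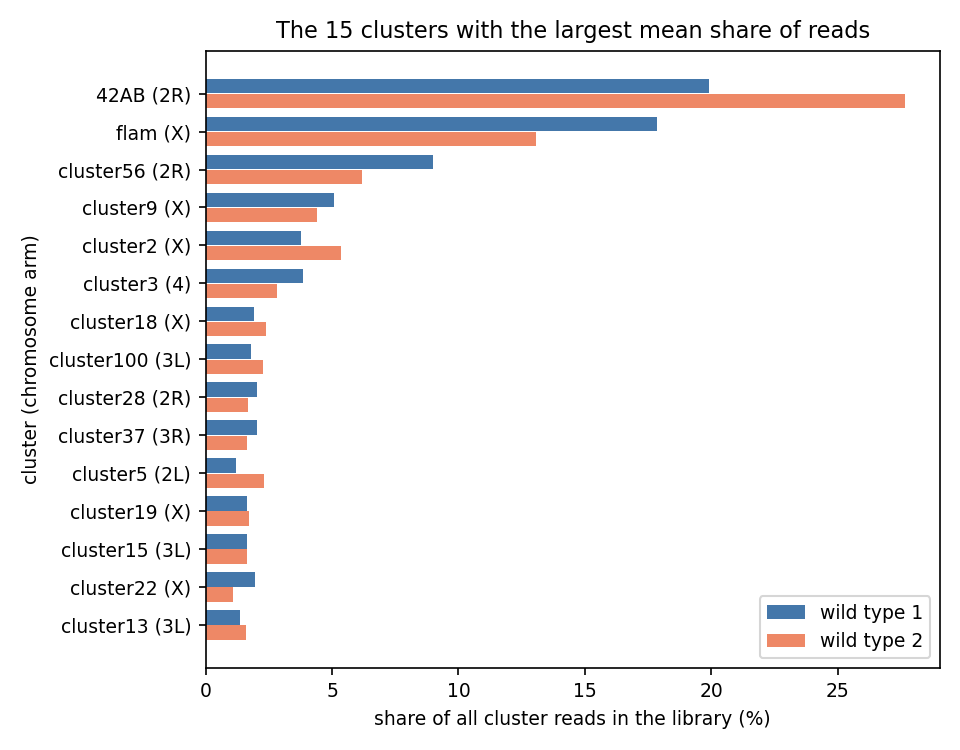
Share of all cluster reads (%) held by the 15 clusters with the largest mean share, with a bar for each wild-type library and the chromosome arm in parentheses. 42AB and flam stand apart from all others in both libraries, with 42AB at 19.9% and 27.7% and flam at 17.9% and 13.1%.

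Cluster reads were concentrated in few loci. The 4 clusters of largest mean share, 42AB, flam, cluster56 and cluster9, held 51.9% of cluster reads in wild type 1 and 51.3% in wild type 2, with 15.1% of the summed cluster length of 4007 kb. In each library, 4 clusters were needed to reach 50% of the reads and 35 to reach 90%, while 80% took 20 clusters in wild type 1 and 19 in wild type 2. A mean share above 1% was held by 19 clusters. At the other end, 21 clusters had under 0.1% each and 1.01% together.

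**Figure D3:**
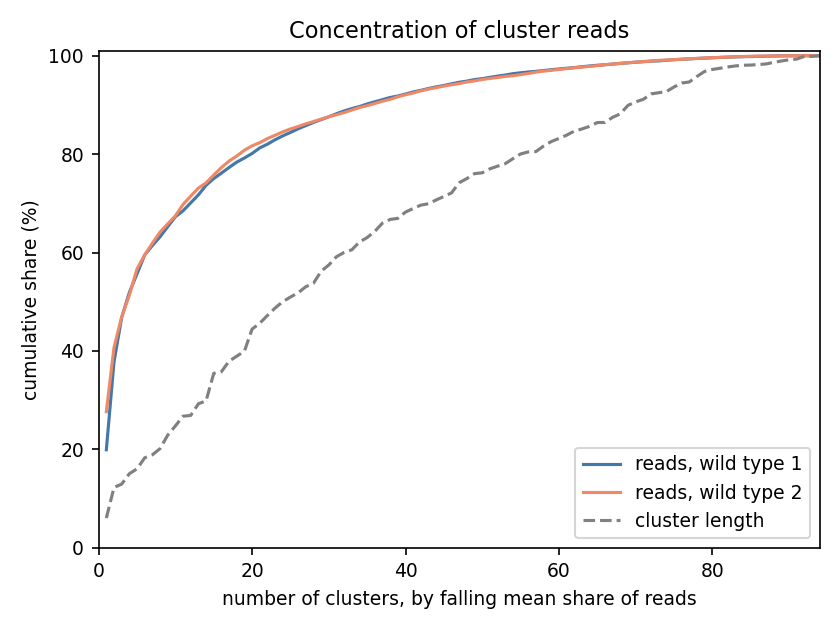
Cumulative share (%) of cluster reads in each wild-type library (solid lines) and of summed cluster length (dashed line) as clusters are added by falling mean share. The lines of the 2 libraries nearly coincide, passing 50% at 4 clusters, where length has reached 15.1%.

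Level showed little relation to length over all clusters. Across the 94 clusters, log2 mean RPKM and log2 length had a Pearson r of -0.03 and a Spearman rho of 0.02, a description over intervals that share 2 libraries and can share repeat sequence. The scatter was of similar size in both quantities, with an SD of 1.81 for log2 RPKM and 1.63 for log2 length. The log2 share, which is their sum apart from a constant and averaging, had a Spearman rho of 0.64 with length and 0.71 with level. Within arms the Pearson r of level with length was 0.43 on 2L (12 clusters), 0.30 on 2R (21), -0.08 on 3L (26), 0.15 on 3R (17) and 0.009 on X (14), and 0.73 over the 4 clusters of chromosome 4.

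Long clusters differed widely in level. After flam and 42AB the longest were cluster13 (224 kb) and cluster20 (180 kb), both on 3L. Cluster13 had 8.22 and 9.52 RPKM and held 1.37% and 1.58% of reads. Cluster20 had 6.84 and 6.75 RPKM and held 0.915% and 0.899%. Their levels were below the median of all clusters in both libraries, while flam and 42AB, of similar length, were above 70 RPKM.

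Short clusters also differed widely in level. The shortest, cluster114, covers 204 bp inside the gene tyf on X and rested on 127 reads (31.8 RPKM) in wild type 1 and 19 reads (13.7 RPKM) in wild type 2. Cluster110, 1.35 kb long and inside the gene Agpat1, had 34.8 and 54.6 RPKM. Split into 3 classes by length, the 32 short clusters (up to 22.1 kb) held 6.14% of reads in wild type 1 and 7.14% in wild type 2, with 8.62% of the length. The 31 middle clusters held 25.6% and 22.9% with 25.1% of the length, and the 31 long ones (over 41.0 kb) held 68.3% and 69.9% with 66.3% of the length. With classes split at 10 and 50 kb, the 18 clusters under 10 kb held 2.88% and 3.59% of reads with 2.74% of the length. The clusters of 10 to 50 kb held 31.9% and 29.4% of reads with 38.8% of the length. Those over 50 kb held 65.2% and 67.0% with 58.4% of the length. Whether the shortest class held less than its share of length thus depended on the split.

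**Figure D4:**
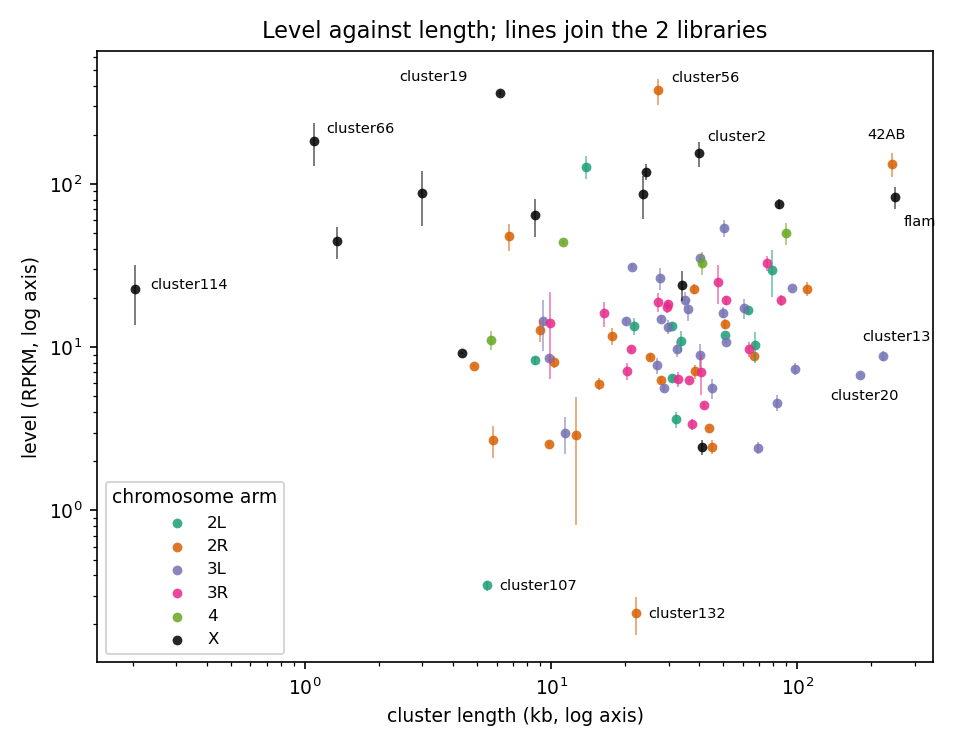
Mean RPKM (vertical, log axis) against cluster length in kb (horizontal, log axis), 1 point per cluster coloured by chromosome arm, with a line from the lower to the higher library. High levels occur from cluster66 at 1.09 kb to flam at 249 kb, and the long cluster13 and cluster20 lie below the median level of 13.4 RPKM.

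Reads were spread unevenly over the chromosome arms. The 21 clusters of 2R held 34.0% of cluster reads in wild type 1 and 38.5% in wild type 2 (mean 36.2 ± 3.18%, SD, n = 2), with 20.7% of the length. The 14 clusters of X held 33.6% and 29.6% (mean 31.6 ± 2.85%), with 13.0% of the length. The 26 clusters of 3L held 14.01% and 13.6% with 35% of the length. The 17 clusters of 3R held 8.01% and 7.32%, the 12 of 2L held 5.24% and 6.61%, and the 4 of chromosome 4 held 5.10% and 4.40%. This order was the same in both libraries, and the ranges of neighbouring arms did not overlap, the narrowest gaps being those between 2R and X and between 2L and chromosome 4.

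Per unit of length X stood highest. Over the summed length of its clusters X had 86.6 RPKM in wild type 1 and 76.5 RPKM in wild type 2, 2R had 55.0 and 62.5 RPKM, and chromosome 4 had 46.3 and 40.1 RPKM. The other 3 arms were lower, at 13.4 and 13.0 RPKM for 3L, 16.1 and 14.8 RPKM for 3R, and 16.0 and 20.3 RPKM for 2L. X and 2R, the arms with most reads, had opposite makeups. The median cluster of X had a mean level of 79.5 RPKM, the highest median of any arm, and the median cluster of 2R had 8.12 RPKM, the lowest.

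The place of 2R rested on 2 clusters. Without 42AB, 2R had 32.2 and 24.8 RPKM over its summed length, and without 42AB and cluster56 it had 12.2 and 11.1 RPKM, below every other arm. Its mean share of reads without 42AB was 16.3%, against 41.5% for X and 18.1% for 3L. X without flam still had 77.8 and 82.0 RPKM, while its mean share was 19.1% against 42.8% for 2R. By mean level on chromosome 4, cluster106 (45.5 and 42.6 RPKM) and cluster29 (27.6 and 38.2 RPKM) lay between cluster3 (57.3 and 42.3 RPKM) and cluster78 (9.55 and 12.6 RPKM). In wild type 2 alone, cluster106 was slightly above cluster3. Cluster29 overlaps Sox102F, a transcription factor gene, and cluster78 lies inside toy, an eye development gene.

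**Figure D5:**
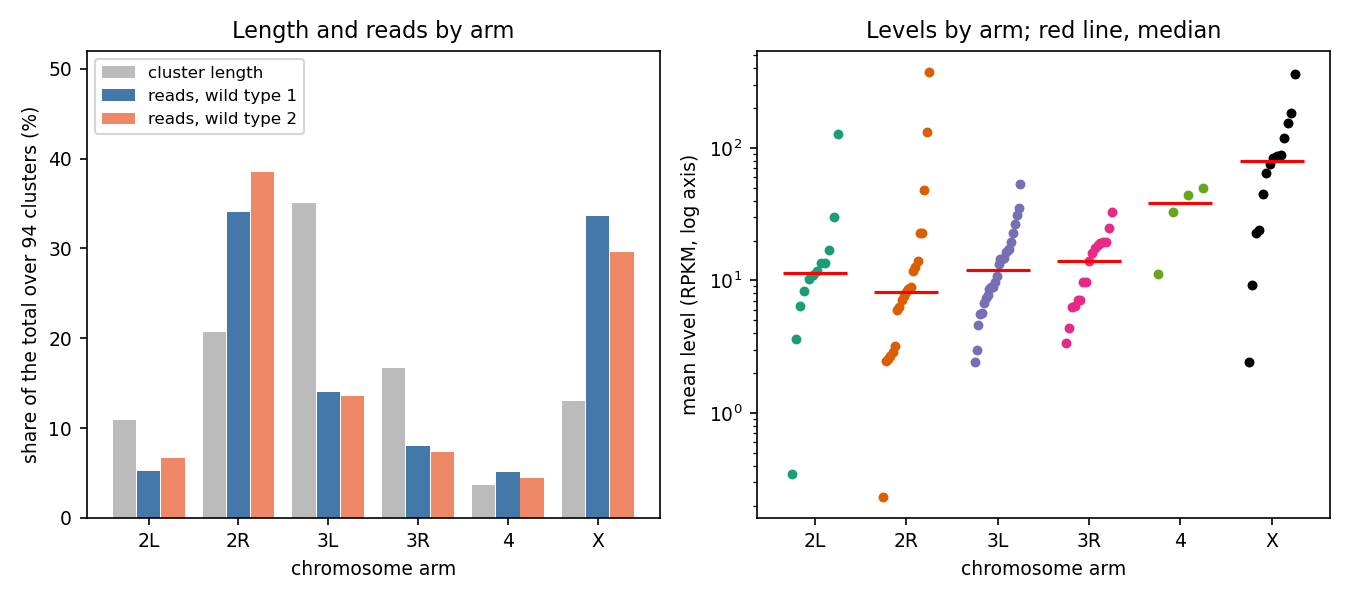
Left, share (%) of summed cluster length and of cluster reads in each wild-type library by chromosome arm; right, mean RPKM of each cluster by arm on a log axis, with the median as a red line. 2R and X hold the most reads, but the median cluster of X is at 79.5 RPKM and that of 2R at 8.12 RPKM.

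Most clusters lay near centromeres. Distance was taken from the centromere-side end of the arm, set by the outermost annotated gene or cluster. Within 5 Mb of it lay 81 of the 94 clusters, with 90.9% of the length, 66.8% of the reads in wild type 1 and 62.5% in wild type 2. The 4 clusters of chromosome 4, which is shorter than 5 Mb in these coordinates, fall in this band whatever their place on it. Another 6, between 5 and 10 Mb all on 2R except cluster48 on 3L, included 42AB and cluster56 and held 29.3% and 34.2% of reads. The 7 clusters farther out held 3.90% and 3.32%, with 1.41% of the length. Most of that was in cluster19 (1.62% and 1.69%) and cluster22 (1.95% and 1.07%).

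Of the clusters, 5 lay within 200 kb of the outer end of an arm, where subtelomeric repeats are known as piRNA sources. Cluster22 on X had 111 RPKM in wild type 1 and 61.2 RPKM in wild type 2, and cluster3 on chromosome 4 had 57.3 and 42.3 RPKM. Cluster97 at the end of 2R had 38.8 and 57.2 RPKM. Cluster11 at the end of 3R had 6.41 and 21.6 RPKM, and cluster33 on 2L, which overlaps the polarity gene l(2)gl, had 8.76 and 7.83 RPKM. These clusters did not move together between the libraries, as 3 were lower and 2 higher in wild type 2.

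The clusters differed in how they sit among genes. An annotated gene span was overlapped by 64 of the 94, and 29 lay wholly inside 1 gene; exons and introns were not analysed here. The 64 held 61.8% and 53.2% of reads with 65.9% of the length. Flam, counted here through its own precursor lncRNA:flam, held 17.9% and 13.1% of all cluster reads. Cluster56, counted through an overlap of 248 bp, held 8.999% and 6.20%. The 30 that overlap none, 42AB and cluster19 among them, held 38.2% and 46.8% with 34.1% of the length. Of those 30, 42AB alone held 19.9% and 27.7% of all cluster reads. The median level was 11.9 RPKM in the first set and 13.5 RPKM in the second. Several clusters shared a very long heterochromatic gene: 7 lay inside Myo81F on 3R, an unconventional myosin gene, with mean levels from 3.38 to 25.1 RPKM, and 4 inside Pzl on 3R, which encodes a mechanosensitive channel, with 7.07 to 19.4 RPKM. The 3 clusters inside Snap25, a vesicle fusion gene listed at 0 FPKM in both wild-type total RNA libraries, had 5.65 to 10.7 RPKM.

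Some intervals overlap genes of other RNAs. Cluster92 on X, at 29.2 and 19.1 RPKM, overlaps annotated ribosomal RNA pseudogenes and the microRNA gene mir-10404-3. Cluster79 on 2L, at 4.01 and 3.22 RPKM, overlaps the ribosomal protein gene RpL5 and the small nucleolar RNA snoRNA:Psi28S-2996. Cluster55 on 3L, at 10.4 and 7.49 RPKM, lies inside AGO3, the PIWI protein gene of the ping-pong cycle. In the wild-type total RNA libraries AGO3 was at 6.23 and 61.2 FPKM and RpL5 at 1107 and 1085 FPKM. What share of the reads in these intervals came from such RNAs was not tested.

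The 2 libraries agreed closely for most clusters. Log2(RPKM + 1) had a Pearson r of 0.96 and a Spearman rho of 0.95 across the 94 clusters, which share the same 2 libraries. By arm the Pearson r was lowest on 3R, at 0.82 over 17 clusters, and 0.93 or higher on the others. Spearman rho was 0.66 on 3R, 0.80 over the 4 clusters of chromosome 4, 0.89 on X and 0.94 or higher on the other arms. Mean levels on 3R ran only from 3.38 to 32.7 RPKM. A narrow range can lower a correlation by itself, and its part here was not tested. The median cluster was 1.23-fold apart, 77 clusters were within 1.5-fold and 89 under 2-fold. Wild type 2 was higher in 44 clusters and lower in 50.

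These differences were nevertheless larger than counting error in most clusters. The ratio of wild type 2 to wild type 1 over all cluster reads was 1.004. The 95% counting interval of a cluster's own ratio lay above that value in 38 clusters, below it in 45 and included it in 11. Such intervals compare these 2 libraries only, and take reads as independent molecules, which reads without molecular identifiers are not.

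Among the 92 clusters whose mean reached 1 RPKM, wild type 2 was at least 2-fold higher in 2 (2.17%) and at least 2-fold lower in 3 (3.26%). The higher ones were cluster11, with 1239 reads in wild type 1 and 1447 in wild type 2 and a ratio of 3.38 (3.13 to 3.65), and cluster103, with a ratio of 2.19 (2.08 to 2.31). Cluster136 on 3L, inside the RNA helicase gene Dbp80, had 19.6 and 9.48 RPKM, a ratio of 0.484 (0.443 to 0.528). The other 2 had under 100 reads in wild type 2 and are named after their values were seen. Cluster133 on 2R had 1225 and 70 reads, a ratio of 0.165 (0.128 to 0.210), and cluster114 had 127 and 19 reads, a ratio of 0.433 (0.252 to 0.704).

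The next largest ratios among clusters with at least 100 reads in both libraries fell short of 2-fold. Above 1 they were those of cluster5 at 38C (1.92), cluster66 (1.83) and cluster61 (1.72). Below 1 they were those of cluster22 (0.550), cluster115 (0.564), cluster60 (0.576) and cluster140 (0.596). Cluster115 and cluster60 lie inside Pzl and Myo81F, whose other clusters had ratios closer to 1, such as 0.955 for cluster67 in Myo81F and 0.850 for cluster70 in Pzl.

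A run of neighbours on X was higher in wild type 2. Cluster18, cluster66, cluster61 and cluster103, which lie within 159 kb of each other (X, 22119840 to 22278655), had ratios of 1.250, 1.83, 1.72 and 2.19, a group singled out after its values were seen. The next cluster on X, cluster9, had a ratio of 0.870. Over all arms, 48 of 88 pairs of adjacent clusters lay on the same side of equal levels. The named germline clusters 42AB (1.39), cluster27 (1.38) and cluster5 (1.92) and 20A (1.42) were higher in wild type 2, while 80F (0.949) was nearly equal and flam (0.733) lower.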

How the data were processed

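The submitters' processing notes name Bowtie2 2.2.4 and the build dm6 without saying what each was used for; the labels' protocols name phenol-based RNA isolation and a sequencing company that made the libraries. The small RNA values, deposited by the authors without a named unit, are RPKM as far as the values show, with the counting tool and the reads behind the scaling not given in the sources used here. Multiplied by cluster length (end minus start), all 94 values of each library were whole multiples of 1 step, with a tolerance of 0.01. Starts were therefore read as 0-based and are given 1-based. Reads were recovered from these steps; the recovery was tested on simulated data and found every read number in 100 of 100 simulated libraries. The total RNA table was deposited by the authors as FPKM plus 1, and the 1 was subtracted; transcripts of a gene were summed, and 32986 of 35502 rows matched a gene. Gene spans come from a RefSeq annotation of Release 6, the assembly of dm6.

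No test was made, since 1 group has no contrast. Means carry an SD over 2 libraries, shares an exact Clopper-Pearson 95% interval, ratios an interval from the same method; correlations across clusters carry no p-value. A rule named the clusters with the 10 highest levels, the 10 largest shares and the 5 lowest levels. It took in the intervals at 20A, 38C, 42AB, 80F and flam. Among clusters with at least 100 reads in both libraries, it also took the 5 largest ratios in each direction. Other clusters, such as cluster13, cluster20, cluster29, cluster55 and cluster78, were named outside this rule to describe length, arm, position or gene overlap. Region names other than 42AB and flam are background knowledge, not given in the table. The clusters, lists and rules were chosen with earlier results of these data known. Python 3.11.15, numpy 2.4.6, pandas 2.3.3, scipy 1.17.1 and matplotlib 3.10.9 were used.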

Additional observations from a re-analysis of the deposited data

How the results depend on the processing

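With 2 libraries, leaving out 1 always moves a mean by less than the SD, so those values say nothing of stability. A geometric mean of 2 values lies between them, so it too always moves by less than the SD. The 22 of 22 levels of named clusters that did so therefore say nothing of stability either. Of the shares of named clusters recomputed without 42AB, 5 moved by less than the SD between libraries. The other 16 moved by more, since leaving out 42AB raises every share. Without 42AB the mean share was 7.84% for 2L, 16.3% for 2R, 18.1% for 3L, 10.1% for 3R, 6.23% for chromosome 4 and 41.5% for X, and 84.9%, 10.4% and 4.73% for clusters within 5 Mb, 5 to 10 Mb and over 10 Mb from the centromere end. Without flam, chosen after seeing the data, the arm shares in the same order were 6.99%, 42.8%, 16.3%, 9.09%, 5.64% and 19.1%. With length classes split at 10 and 50 kb the shares were 3.24%, 30.7% and 66.1%. Without 42AB, 7 clusters held 50% of reads in place of 4. The Pearson r of level with length was -0.096 at a mean of at least 1 RPKM, -0.075 without 42AB, and -0.036 to -0.012 with 1 library left out; Spearman rho was -0.017, -0.0075, and 0.015 to 0.030. The correlation of the libraries was lower with a minimum level. Pearson r was 0.954 at a mean of at least 1 RPKM and 0.921 at 10 RPKM, and Spearman rho 0.943 and 0.871. Such a cut narrows the range of levels, which can lower a correlation by itself, so worse agreement at higher levels cannot be read from it. For clusters with at least 100 reads in both libraries, Pearson r was 0.962 and Spearman rho 0.946. In place of 5 clusters at least 2-fold apart, 16 were at least 1.5-fold apart. No paired analysis was possible because a single group of 2 libraries was described. Depth limits the thinnest clusters, with 12 reads in wild type 2 at the lowest.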
